A study of Mus musculus with 6 samples.

Results

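P2 and P3 were compared gene by gene. They are 2 of 6 populations, P1 to P6, of stromal cells isolated by flow sorting from the omentum, a visceral fat that carries lymphoid clusters called milky spots. Both were CD45-CD140a+CD105+ cells of WT C57BL/6 mice and differed in the gate on aldehyde dehydrogenase (ALDH) activity, read with a fluorescent substrate, which was intermediate in P2 and low in P3. P1 had high ALDH activity with the same surface gate, P4 and P5 were the CD105- cells with intermediate and low ALDH activity, and P6 was a further stromal population with little transcript of the sorting gene *Pdgfra*. The age of the mice and the number of mice behind each sort are not given in the sources used here. Each population had 1 library, so no test of a difference was possible. A gene was counted as higher in a library when its level was at least 2 times that in the other and at least 1 FPKM, the number of fragments scaled to transcript length and library size. All genes were compared in both directions, and genes of the pancreatic acinar cell, which makes digestive enzymes, were set apart. Intervals in parentheses are 95% intervals on a ratio for counting error only, computed from estimated reads. They do not cover the spread between mice or sorts. In bulk RNA of sorted cells, fewer cells of a type and less RNA per cell cannot be told apart.

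Fibroblastic reticular cells (FRCs) are the fibroblasts of lymphoid organs. They form the network on which lymphocytes crawl, make its collagen fibres and secrete chemokines that place the lymphocytes. CXCL13 attracts B cells through the receptor CXCR5, CCL19 attracts T cells and dendritic cells through CCR7, and ALDH1A enzymes oxidize retinal to retinoic acid. APOE is a lipid carrier made by macrophages and by many fibroblasts.

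Genes of the gate and of FRCs were present in both libraries. *Pdgfra*, the gene of CD140a, had 154 FPKM in P2, 153 in P3 and 5.36 in P6. *Eng*, the gene of CD105, had 52.2 FPKM in P2 and 42.6 in P3, a ratio of P2 to P3 of 1.23 (1.19 to 1.26). *Pdpn*, which encodes the FRC surface protein podoplanin, had 84.6 and 78.8 FPKM. Thus the receptors used for sorting were nearly level, with *Eng* somewhat lower in P3. *Vcam1*, an adhesion molecule for lymphocytes, had 73.3 FPKM in P2 and 98.2 in P3, and *Des*, the intermediate filament desmin, had 130 and 198. *Ptprc* (CD45) had 0.751 FPKM in P2 and 0.461 in P3, and *Pecam1*, a defining endothelial gene, had 0.370 and 0.552. Both were below 1 FPKM in both libraries.

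Of 23352 genes, 11841 reached 1 FPKM in P2 or P3, were above 0 in both and lay outside the acinar genes and short RNAs. Of these, 88 (0.743%) were at least 2 times higher in P2 and 288 (2.43%) at least 2 times higher in P3, so that 3.18% of the genes lay this far apart in either direction. The libraries were close for most genes, with 92.9% of the tested genes within 1.5 times of each other, a median log2 ratio of P2 to P3 of -0.03 and a Spearman correlation across genes, which are not independent replicates, of 0.983. Over the same genes, 43.4% were above P3 in P2 by any amount and 56.6% above P2 in P3. The counts of list members above the other library, given below, are to be read against these shares. Counts of list members past the threshold are to be read against 0.743% towards P2 and 2.43% towards P3. At 5 FPKM or more in the higher library, 23 genes were higher in P2 and 122 in P3. Among 1356 genes with at least 50 FPKM, 3 (0.221%) were higher in P2 and 9 (0.664%) in P3, and at a ratio of 1.5 the numbers were 27 and 31. Depth was similar, at an estimated 61.7 M reads in P2 and 60.7 M in P3.

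**Figure D1:**
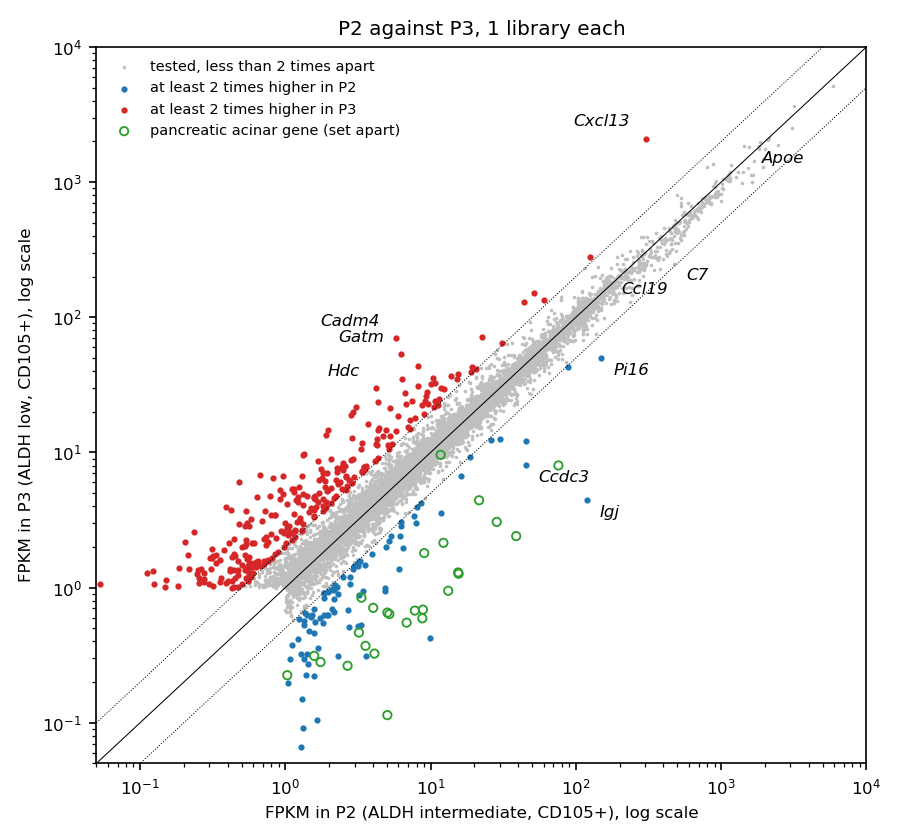
FPKM of each gene in P2 (x axis) and P3 (y axis), both on log scales, with 1 library per population; the solid line marks equal levels, the dotted lines a ratio of 2, and genes under 0.05 FPKM in either library are not drawn. The 288 red genes include *Cxcl13*, the most abundant of them, the 88 blue genes are led by *Igj*, and the acinar genes (green circles) lie on the P2 side.

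*Cxcl13* was the most abundant gene past the threshold in either direction. It had 304 FPKM in P2 and 2090 in P3, which was 6.87 times higher in P3 (6.76 to 6.98). Across the other libraries it had 209 FPKM in P1, 825 in P4, 3464 in P5 and 47.4 in P6. Within each CD105 gate the ALDH-low library was thus the higher, and P3 lay between P2 and P5. The other markers of these cells hardly differed. *Ccl19* had 168 FPKM in P2 and 204 in P3, a ratio of P3 to P2 of 1.21 (1.17 to 1.25), and *Apoe* had 1558 and 1828, a ratio of 1.17 (1.16 to 1.18). In the remaining libraries *Ccl19* was between 3.60 FPKM in P6 and 90.8 in P1, so that its levels in P2 and P3 were above those of every other population. *Apoe* ran from 844 FPKM in P1 to 1632 in P5 outside the pair, and its level was highest in P3.

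Upstream sequences are given as examples for *Cxcl13* and *Gatm*, higher in P3, and *Cilp*, higher in P2. Each was among the 10 genes with the largest ratio of its direction at 50 FPKM or more, though the ratio of *Cilp* was only 2.06. Each has a RefSeq start that is also the outer end of the gene. Each run holds the 250 bases before the start, 5′ to 3′ on the strand of the gene, in GRCm38.p6 (chr5:95956689-95956938 on the plus strand, chr2:122611278-122611527 on the minus strand and chr9:65264930-65265179 on the plus strand). Capitals mark a match to TATAAA, the core of the TATA box, on either strand.
Cxcl13: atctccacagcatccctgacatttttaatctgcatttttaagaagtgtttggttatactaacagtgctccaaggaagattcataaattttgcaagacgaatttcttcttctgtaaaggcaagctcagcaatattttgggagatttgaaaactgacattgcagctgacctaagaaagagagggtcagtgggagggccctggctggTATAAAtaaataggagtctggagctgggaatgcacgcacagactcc
Gatm: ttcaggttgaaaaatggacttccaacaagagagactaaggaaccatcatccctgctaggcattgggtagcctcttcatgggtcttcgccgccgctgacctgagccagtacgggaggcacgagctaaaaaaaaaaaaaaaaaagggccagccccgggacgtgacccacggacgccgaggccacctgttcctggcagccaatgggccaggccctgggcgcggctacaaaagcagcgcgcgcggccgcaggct
Cilp: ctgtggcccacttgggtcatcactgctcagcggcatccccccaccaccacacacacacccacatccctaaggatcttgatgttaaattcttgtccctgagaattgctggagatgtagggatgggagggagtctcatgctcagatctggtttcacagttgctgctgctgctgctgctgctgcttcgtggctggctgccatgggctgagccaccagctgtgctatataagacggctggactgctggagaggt
TATAAA was found in *Cxcl13*, from 46 to 41 bases before the start, and these letters were not in the windows of *Gatm* and *Cilp*. Windows were held for 15 of the 20 genes with the largest ratio in P3 and for 13 of the 20 in P2. TATAAA occurred in 1 and 4 of these, against 14.3% of the windows of 27025 genes. The other motifs searched on both strands were GGGCGG (6 of 15 and 6 of 13, against 35.4%), TGANTCA (1 and 0, against 7.82%) and the NF-kB consensus (1 and 0, against 4.46%), and these had no match in the sequences shown. These matches are descriptions of letters and were not read as sites.

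Among the 13 chemokines and survival factors of lymphoid tissue, 11 reached 1 FPKM. Of these, 2 were at least 2 times higher in P3 (2.43% of all tested genes) and none in P2 (0.743%). By any amount, 9 of the 11 were above P2 in P3 (56.6% of all tested genes), with a median log2 ratio of P2 to P3 of -0.28. The second member past the threshold was *Il34*, a ligand of the CSF1 receptor on macrophages, with 8.14 FPKM in P2 and 43.9 in P3, 5.38 times higher in P3 (4.99 to 5.82). *Cxcl12*, which binds CXCR4, had 551 and 597 FPKM, and *Csf1*, the other ligand of the CSF1 receptor, had 190 and 189. Among the 11 members at 1 FPKM or more, the separation past the threshold therefore lay in *Cxcl13* and *Il34*. Below this minimum, *Tnfsf11*, which encodes RANKL, was also higher in P3, with 0.183 FPKM in P2 and 0.696 in P3. The interval on its ratio of P3 to P2 was 2.38 to 6.31. *Il7*, a survival factor for T cells, had 1.94 and 3.74 FPKM and stayed just under the threshold.

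Most inflammatory chemokines and cytokines had the higher value in P3. Of 13 members with at least 1 FPKM, 12 were above P2 in P3, against 56.6% of all tested genes, and 2 passed the threshold, against 2.43%, with a median log2 ratio of -0.39. *Cxcl2*, a neutrophil attractant, had 2.86 FPKM in P2 and 5.95 in P3 (2.08 times, 1.78 to 2.46). *Cxcl5*, of the same receptor class, had 0.301 and 1.65, so that it reached 1 FPKM only through P3. Outside this list, *Ccl24*, an eosinophil attractant that binds CCR3, had 4.31 FPKM in P2 and 23.7 in P3, 5.49 times higher (4.70 to 6.42). Each of these 3 chemokines was highest in P5, at 13.9, 5.11 and 32.0 FPKM.

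Further genes were among the 20 with the largest ratio towards P3. *Cadm4*, a cell adhesion molecule of the immunoglobulin superfamily, had 5.81 FPKM in P2 and 69.7 in P3, 12.0 times higher (11.1 to 13.0). *Gatm*, the first enzyme of creatine synthesis, had 6.23 and 53.0 FPKM, 8.51 times higher (7.92 to 9.15). *Hdc*, which makes histamine from histidine, had 4.22 and 29.7 FPKM, 7.06 times higher (6.46 to 7.72). All of them were low in P1, at 3.65 to 4.28 FPKM, and higher still in P5, where *Cadm4* had 196 FPKM, *Gatm* 200 and *Hdc* 161. *Aqp5*, a water channel, had 1.98 and 14.6 FPKM. *Angptl7*, a secreted angiopoietin-like protein, had 2.91 and 19.9, and *Pde7b*, which breaks down cyclic AMP, had 1.33 and 9.51. These 3 genes reached 97.3, 151 and 46.1 FPKM in P5.

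The receptor genes *Fcgr2b* and *Trem2* were also among them. *Fcgr2b*, the inhibitory receptor for IgG that is found on B cells and on follicular dendritic cells, had 3.08 FPKM in P2 and 21.7 in P3, 7.07 times higher (6.18 to 8.09). *Trem2*, a lipid-sensing receptor of macrophages, had 1.90 and 13.4 FPKM, 7.02 times higher (5.72 to 8.76). In P4 and P5 *Fcgr2b* had 33.9 and 49.4 FPKM, and *Trem2* had 56.9 and 78.1. In the myeloid marker list, 5 of 6 genes with at least 1 FPKM were above P2 in P3. Its summed level was 43.4 FPKM in P2 and 67.4 in P3, and 29.0 in P4 and 35.3 in P5. *Cd14* of that list had 12.3 and 29.7 FPKM and *Csf1r*, the CSF1 receptor, 1.49 and 1.66, whereas *Ptprc* was lower in P3. The part of myeloid cells in these transcripts was not tested. *Clec14a*, a surface lectin known from endothelium, had 0.824 and 6.47 FPKM, and *Plvap*, a component of endothelial fenestrae, had 5.27 and 21.4. In P4 and P5 *Clec14a* had 15.6 and 24.5 FPKM, and *Plvap* had 10.1 and 26.8.

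*Myh11*, the smooth muscle myosin heavy chain, had 6.31 FPKM in P2 and 35.1 in P3, 5.56 times higher (5.32 to 5.80). Of 7 contractile and mural genes at 1 FPKM or more, 7 were above P2 in P3, against 56.6% of all tested genes, with a median log2 ratio of -0.60. By at least 2 times it was 2, against 2.43%, and the second was *Acta2* (smooth muscle actin), with 1.90 and 4.32 FPKM. *Cryaa*, a lens crystallin, had 0.482 and 6.00 FPKM. Among genes at 5 FPKM or more it had the largest ratio towards P3 with an interval, 12.5 (8.73 to 18.8). *Gata5*, a transcription factor of the heart and gut, had 0.925 and 5.23 FPKM. *Sez6l* had 2.83 and 19.0, *Rerg* 0.962 and 6.65, *Gpr126* 1.34 and 9.68, and *3110035E14Rik* 0.672 and 6.75. Of the 20 genes with the largest ratio towards P3, *Atp6v0c-ps2*, a pseudogene whose reads may be shared with its parent, and *Hba-a2*, an alpha globin gene with a near-identical copy, had fewer than 3 estimated reads in P2 and were given no ratio.

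**Figure D2:**
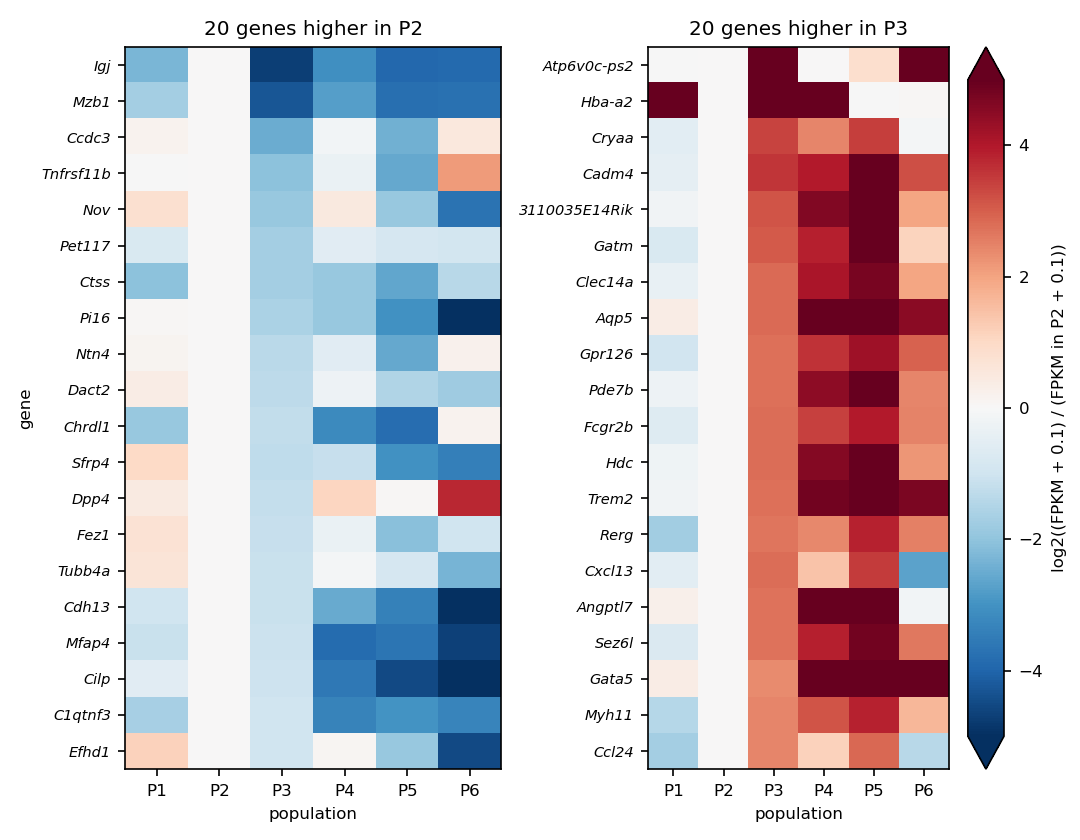
log2 of FPKM relative to P2, after adding 0.1 to both, in the 6 populations for the 20 genes with the largest ratio towards P2 (left) and towards P3 (right), 1 library each; colours stop at 5 in either direction. Most genes on the right are near P2 in P1, higher in P3 and higher again in P4 and P5, whereas *Cxcl13* and *Ccl24* are nearer to P2 in P4 than in P3.

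Among the genes with at least 50 FPKM in the higher library, *Clu* (clusterin, a secreted chaperone) had 51.7 FPKM in P2 and 151 in P3, 2.93 times higher (2.84 to 3.02). *Tgm2*, which crosslinks matrix proteins, had 60.2 and 134 FPKM, 2.23 times higher (2.18 to 2.27). *Rdh10*, which oxidizes retinol to retinal, had 31.2 and 64.2 FPKM, and *Sdc4*, a heparan sulphate proteoglycan of the cell surface, had 116 and 231, a ratio of 1.99 that lay just under the threshold. The nuclear RNA *Malat1* had 125 FPKM in P2 and 278 in P3. It had 254 FPKM in P5 against 117 in P4, so that it too was higher in the ALDH-low library of both gates.

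A smaller group was higher in P3 than in any other population. Of the 122 genes with at least 5 FPKM that were higher in P3 than in P2, 70 were highest in P5, 33 in P6 and 18 in P3 itself. The share of all tested genes that were highest in each population was not counted, so these counts are descriptions. Genes of these 18 are named here after their values were seen. *Csf2rb*, the shared beta chain of the receptors for GM-CSF, IL-3 and IL-5, had 11.8 FPKM in P2, 29.8 in P3 and 3.12 in P5, and the other populations ran from 0.323 to 1.12. *Ccl9*, a chemokine for myeloid cells, had 9.65 FPKM in P2, 22.9 in P3 and at most 3.03 elsewhere. Both were therefore highest in the CD105+ pair, with the higher level at low ALDH activity. *Spib* had 7.47 and 24.0 FPKM and *Irf8* 7.23 and 17.4, and both encode transcription factors known from lymphoid and myeloid cells. *Cd72*, a B cell co-receptor, had 4.17 and 11.5 FPKM, and *Cd14*, the lipopolysaccharide co-receptor, had 12.3 and 29.7. The B cell genes *Cd79a* and *Cd79b* went the other way, with 3.21 and 2.14 FPKM in P2 and 0.878 and 0.661 in P3. *Ngfr*, the low-affinity neurotrophin receptor, had 4.66 and 13.3 FPKM, and *Gfra2*, a neurturin receptor, had 4.93 and 14.6. *Ltbp2*, a microfibril protein, had 9.21 and 23.9 FPKM. *Ch25h*, which makes the oxysterol precursor of an EBI2 ligand that positions B cells, had 2.22 and 6.25. For *Spib*, *Irf8*, *Cd72*, *Cd14*, *Ngfr*, *Gfra2*, *Ltbp2* and *Ch25h*, the level in P5 lay between those of P2 and P3. It came nearest to P3 for *Ch25h* (5.74 FPKM in P5), *Ltbp2* (19.5) and *Cd14* (22.8). It was further below P3 for *Irf8* (12.4), *Spib* (15.4), *Cd72* (5.43) and *Ngfr* (5.34). With 1 library each, narrow margins over P5 are not read as particular to P3.

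Antigen presentation genes were slightly higher in P3 nearly throughout. Of 16 members with at least 1 FPKM, 15 were above P2 in P3, against 56.6% of all tested genes, and 1 passed the threshold, against 2.43%, with a median log2 ratio of -0.33. *H2-DMb1*, a chaperone that loads MHC class II, had 3.60 FPKM in P2 and 7.99 in P3 (2.22 times, 1.92 to 2.58). *B2m*, the light chain of class I molecules, had 1447 and 1856 FPKM, and *H2-Ab1*, a class II chain, had 12.4 and 23.3. Reads of H2 genes can be shared between copies. Interferon-stimulated genes showed smaller differences, with 21 of 25 above P2 in P3, against the same 56.6%, none past the threshold in either direction and a median log2 ratio of -0.20. *Iigp1* was the most different of those named, with 43.9 and 70.0 FPKM, while *Gbp2* had 41.9 and 43.8.

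Towards P2, the largest ratios among genes with at least 5 FPKM outside the acinar genes were those of *Igj* and *Mzb1*. *Igj*, the joining chain of IgA and IgM, had 119 FPKM in P2 and 4.44 in P3, 26.8 times higher in P2 (24.0 to 30.1), and *Mzb1*, a chaperone of antibody assembly, had 9.95 and 0.421, 23.6 times higher (14.8 to 40.2). A list of 12 plasma cell genes was written after these values were seen and holds both genes, so that it restates them and is no further support. In it, *Pou2af1* had 3.60 and 0.313 FPKM, and *Irf4* was 3.01 times higher in P2 (2.56 to 3.57). The summed level of the list was 278 FPKM in P2 and 148 in P3, and *Xbp1*, which is not limited to these cells, made up 134 and 137 of it. *Igj* made up 119 FPKM of the sum in P2 and 4.44 in P3. A list of 11 lymphoid genes, which shares *Igj*, had a summed level of 127 FPKM in P2 and 7.26 in P3, of which *Igj* again made up 119 and 4.44. Besides *Igj*, the B cell genes *Cd79a* (3.21 and 0.878 FPKM), *Cd79b* (2.14 and 0.661) and *Ms4a1* (1.37 and 0.648) reached 1 FPKM, and they did so only through P2. The T cell gene *Cd3e* had 0.0393 and 0.0267 FPKM. The part of these cells in the genes higher in P2 was not tested.

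Genes of secreted proteins were also among the 20 with the largest ratio towards P2. *Ccdc3*, a secreted protein of fat and endothelium, had 45.3 FPKM in P2 and 8.05 in P3, 5.62 times higher in P2 (5.29 to 5.98). *Nov* (also called *Ccn3*), a matricellular protein, had 45.6 and 12.1 FPKM, 3.78 times higher (3.59 to 3.97). *Tnfrsf11b*, which encodes the RANKL decoy osteoprotegerin, had 6.10 and 1.38, 4.43 times higher (3.82 to 5.14). In the CD105- gate these genes were again higher at intermediate ALDH activity, with *Ccdc3* at 41.4 FPKM in P4 and 8.44 in P5, *Nov* at 64.2 and 12.3, and *Tnfrsf11b* at 4.77 and 0.952. P1 was level with P2 or above it for these 3 genes, at 51.3, 80.5 and 5.97 FPKM. In P6 *Ccdc3* had 64.8 FPKM and *Tnfrsf11b* 27.2, the highest levels of both, whereas *Nov* had 3.47.

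Genes of the adventitial or universal fibroblast, a progenitor-like cell around vessels and in fascia, were the fibroblast list with the most members past the threshold towards P2. Of 16 members at 1 FPKM or more, 14 were above P3 in P2, against 43.4% of all tested genes, 5 were at least 2 times higher in P2, against 0.743%, none was at least 2 times higher in P3, and the median log2 ratio was 0.61, against -0.03 for all tested genes. *Pi16*, a protease inhibitor that marks these cells, had 148 FPKM in P2 and 49.6 in P3, 2.99 times higher in P2 (2.91 to 3.07), and 156 in P1. *Dpp4* (CD26), a peptidase of the cell surface, had 5.17 and 2.20 FPKM. *Efhd1* had 7.99 and 3.93, *Uchl1* 3.18 and 1.45, and *Limch1* 1.35 and 0.562, so that *Limch1* reached 1 FPKM only through P2. *Clec3b* had 1645 and 1137 FPKM and *Mfap5* 244 and 146, so that abundant members of the list lay on the same side without reaching the threshold. The 2 members above P2 in P3 were *Cd55* (103 and 123 FPKM) and *Wnt2* (0.846 and 1.19). In the CD105- gate 15 of the 16 were above P5 in P4, against 42.6% of the genes tested in both gates.

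Matrix genes were higher in P2 in small steps. Of 24 collagen genes at 1 FPKM or more, 21 were above P3 in P2, against 43.4% of all tested genes, and 3 above P2 in P3, none reached the threshold, and the median log2 ratio was 0.25. *Col1a1* had 1618 FPKM in P2 and 996 in P3, a ratio of 1.63 (1.62 to 1.63), and *Col1a2* had 1593 and 1128. *Col3a1* was listed at 0 in P2 and at 2202 FPKM in P3 and was left out of the fold rule, as a 0 for so abundant a gene can be a failed estimate. It is still counted among the 24 genes, among the 3 above P2 in P3 and in the median. The 43.4% covers only genes above 0 in both libraries. Of 25 proteoglycan and elastic fibre genes, 22 were above P3 in P2, against the same 43.4%, with a median log2 ratio of 0.40 and 1 past the threshold in each direction, *Mfap4* (26.0 and 12.3 FPKM) towards P2 and *Ltbp2* towards P3. *Fbln1*, an elastic fibre protein, had 236 and 129 FPKM, a ratio of 1.83 (1.80 to 1.86). Of 13 matricellular genes, 11 were above P3 in P2, with *Nov* past the threshold, and the median was 0.38. *Cilp*, a secreted inhibitor of growth factor signalling known from cartilage, had 88.3 and 43.0 FPKM, 2.06 times higher in P2 (2.01 to 2.11). It was nearly limited to the CD105+ gate, with 59.2 FPKM in P1 but 7.40 in P4, 3.76 in P5 and 0.383 in P6. *C7*, a component of the membrane attack complex, had 473 FPKM in P2 and 249 in P3, a ratio of 1.90 (1.88 to 1.93), and both were above P4 (73.6) and P5 (54.2).

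**Figure D3:**
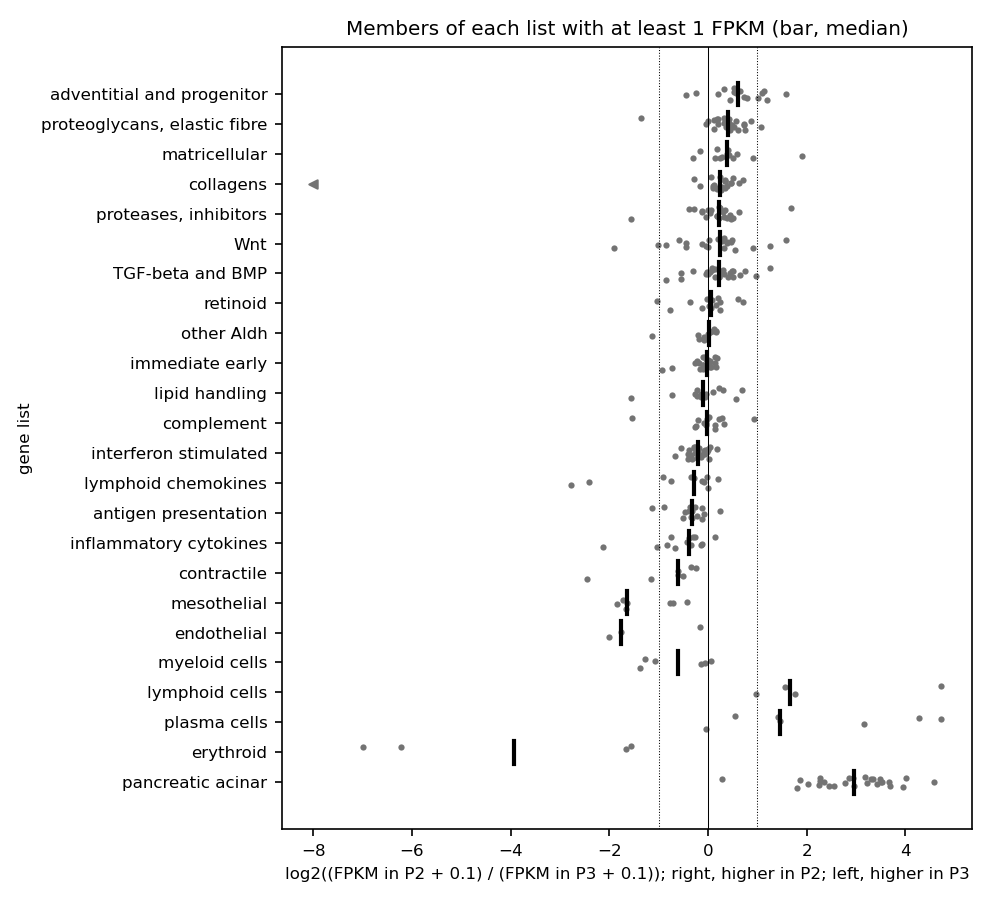
log2 ratio of P2 to P3, after adding 0.1 to both, for the members of each gene list with at least 1 FPKM in either library; each point is a gene, the bar is the median of the list, the dotted lines mark a ratio of 2, and the arrowhead is *Col3a1*, listed at 0 in P2. The fibroblast matrix lists lie slightly to the right, the immune and contractile lists to the left, and the lists of other cell types spread furthest.

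Signalling genes were divided. Of 22 Wnt pathway genes, 2 were at least 2 times higher in each library, against 0.743% of all tested genes towards P2 and 2.43% towards P3. *Sfrp4*, a secreted Wnt antagonist, had 12.6 FPKM in P3 and was 2.39 times higher in P2 (2.23 to 2.56). The ligand *Wnt10b* had 1.83 FPKM in P2 and 0.545 in P3, so that it reached 1 FPKM only through P2. *Wnt4*, a ligand, had 20.6 and 41.8 FPKM and *Frzb*, another secreted antagonist, 1.81 and 7.07. Both directions thus held a ligand and an antagonist. In the TGF-beta and BMP list 1 of 26 passed, against the same 0.743%, namely *Chrdl1*, a BMP antagonist, with 16.2 FPKM in P2 and 6.74 in P3. In this list 19 were above P3 in P2 (43.4% of all tested genes), with a median log2 ratio of 0.22. The fibroblast growth factor genes *Fgf1* (10.4 and 35.4 FPKM) and *Fgfr2* (13.8 and 36.9), named here after their values were seen, were higher in P3. Of 24 immediate early genes none passed in either direction and the median was -0.03. *Fos* had 2102 FPKM in P2 and 2062 in P3, and *Egr1* 1136 and 1143. The sign of the ratio of *Fos* and *Egr1*, and of this list's median, turned with the scaling of the libraries.

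The retinaldehyde dehydrogenase genes differed in direction between P2 and P3. *Aldh1a2* had 78.8 FPKM in P2 and 134 in P3, 1.70 times higher in the ALDH-low population (1.66 to 1.74). *Aldh1a1* was nearly level, with 63.4 and 64.7 FPKM, and *Aldh1a3* was higher in P2, with 38.2 and 23.3, a ratio of P2 to P3 of 1.64 (1.55 to 1.74). None of these 3 genes reached the threshold. Among the other populations *Aldh1a2* had 469 FPKM in P1, 285 in P4 and 145 in P5, so that in the CD105- gate the ALDH-intermediate library was the higher. *Aldh1a3* had 8.99 FPKM in P4 and 6.73 in P5. Of 12 further *Aldh* genes at 1 FPKM or more, 1 was at least 2 times higher in P3, against 2.43% of all tested genes. It was *Aldh1b1* with 1.11 and 2.54 FPKM, and the median log2 ratio of the list was 0.01, a sign that turned with the scaling. *Aldh2*, the mitochondrial enzyme of ethanol metabolism and the most abundant of these 12 genes, had 274 and 246. Of 14 retinoid genes 1 passed, *Rdh10*, towards P3, against the same 2.43%, and the median was 0.07. FPKM measure transcripts, and enzyme activity was not measured in these files.

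Marker lists of other cell types differed between the libraries and are given as whole lists. The amount of RNA from such cells was not measured. Of 46 pancreatic acinar genes, 27 had at least 1 FPKM in P2 or P3, all 27 were higher in P2 and 26 by at least 2 times, with ratios of 1.22 to 60.9 and a median of 9.47. Many of them reached 1 FPKM only through P2, so that they had to differ. *Amy2a5*, an amylase, had 75.8 FPKM in P2 and 8.01 in P3, and *Ctrb1*, a chymotrypsinogen, had 38.8 and 2.40. The summed level was 323 FPKM in P2 and 43.8 in P3, which was 0.0810% and 0.0112% of all FPKM. Amylase, trypsin and elastase genes have close copies, so levels of single members are uncertain. Islet genes had none at 1 FPKM. How these transcripts reached the libraries was not tested.

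Further lists differed between the libraries as well. The sum of the erythroid genes was 66.7 FPKM in P2 and 224 in P3, with *Hba-a1* at 43.8 and 130 and *Beta-s* at 22.6 and 72.0, and the globin copies share reads. The other members with at least 1 FPKM, *Hba-a2* and *Hbb-b1*, reached it only through P3. Of 7 mesothelial genes at 1 FPKM or more, 4 were at least 2 times higher in P3, against 2.43% of all tested genes. Among them was *Bnc1*, which reached 1 FPKM only through P3. *Upk3b* had 6.78 and 22.7 FPKM and *Lrrn4* 2.40 and 7.65, against 1140 and 308 in P6, and the defining gene *Msln* had 0.550 and 0.163. Of 3 endothelial genes at 1 FPKM or more, 3 were above P2 in P3, and 2 by at least 2 times, *Plvap* and *Esam* (0.274 and 1.17 FPKM, so only through P3), while *Cdh5* (0.0898 and 0.174) and *Pecam1* stayed near 0. Of 6 myeloid genes, 5 were above P2 in P3, and 3 by at least 2 times, *Cd14*, *S100a8* (2.21 and 4.77) and *S100a9* (1.92 and 5.18), and *Cd68* had 1.89 and 1.82. The part of these cells in the genes described above was not tested.

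**Figure D4:**
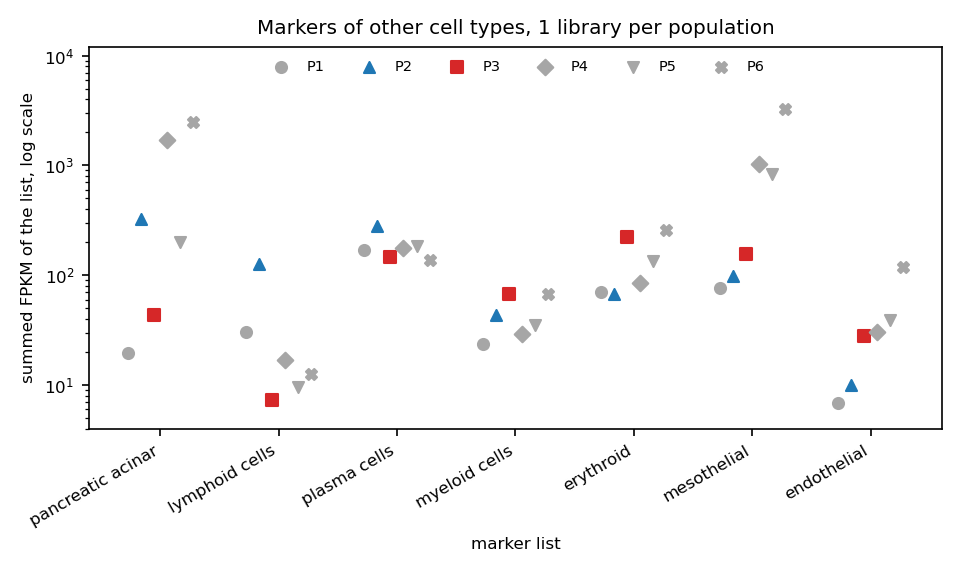
Summed FPKM (log scale) of the marker lists of other cell types in each population, 1 library each, with P2 in blue, P3 in red and the other populations in grey. P2 is above P3 for acinar (323 and 43.8), lymphoid (127 and 7.26) and plasma cell genes (278 and 148), where *Igj* is in both of the latter lists with 119 and 4.44 FPKM. P3 is above P2 for myeloid (43.4 and 67.4), erythroid (66.7 and 224), mesothelial (97.7 and 155) and endothelial genes (10.1 and 28.1). *Cd14* makes up 12.3 and 29.7 FPKM of the myeloid sums, and *Plvap* 5.27 and 21.4 of the endothelial sums. Of the mesothelial sums, *Upk3b* makes up only 6.78 and 22.7 FPKM and *Lrrn4* only 2.40 and 7.65.

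The levels in the other populations place the pair. Of the 288 genes higher in P3, 222 (77.1%) were higher still in P5, the ALDH-low CD105- library, against 60.4% of all tested genes. In P1, 3 were higher than in P3, against 37.1% of all tested genes, and 285 were lower. Counts that set P3 against P1 or P5 follow in part from the rule, which asks for a high level in P3. For 241 of the 288 genes, which were at least 2 times higher in P5 than in P2, the level of P3 was expressed as a position between P2 at 0% and P5 at 100%, which the rule also raises. The median position was 26.5%, with quartiles of 16.3% and 48.6%. For all 842 genes at least 2 times higher in P5 than in P2, it was 19.5%, with quartiles of 11.2% and 29.8%. *Gatm* was at 24.2%, *Hdc* at 16.3% and *Cadm4* at 33.5%, near that range, whereas *Cxcl13* was at 56.5% and *Ccl24* at 69.8%. For the 1060 genes at least 2 times higher in P2 than in P5 and above 0 in P5, the median was 27.1%. The quartiles of these genes were wider apart, at 9.89% and 40.9%, and *Eng*, which is of this class, stood at 18.5%. Whether cells of the CD105- gate were present in the P3 library was not tested. Of the 88 genes higher in P2, 74 were higher in P1 than in P3, against 37.1% of all tested genes, and 43 were highest in P2 and 21 in P1. The share of all tested genes that were highest in P2 or in P1 was not counted.

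The same ALDH contrast exists in the CD105- gate, between P4 and P5, and shares no library with P2 and P3. Of 54 genes higher in P2 that could also be compared there, 30 (55.6%) were at least 2 times higher in P4, against 3.27% of 11488 genes, and 49 were above P5 in P4, against 42.6%. Of 261 genes higher in P3, 54 (20.7%) were at least 2 times higher in P5, against 1.01%, and 232 were above P4 in P5, against 57.4%. Across the 11488 genes the log2 ratios of both comparisons had a Spearman correlation of 0.618, given as a description, since genes are not replicates and acinar RNA, which was set apart, was higher in P2 and in P4. *Csf2rb* had 1.03 FPKM in P4 and 3.12 in P5, and *Ccl9* 2.08 and 2.72, so that the ALDH-low library was the higher in both gates, at lower levels in the CD105- gate. *Mfap4* had 1.69 and 1.95 FPKM in P4 and P5, and it did not share the direction seen between P2 and P3.

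**Figure D5:**
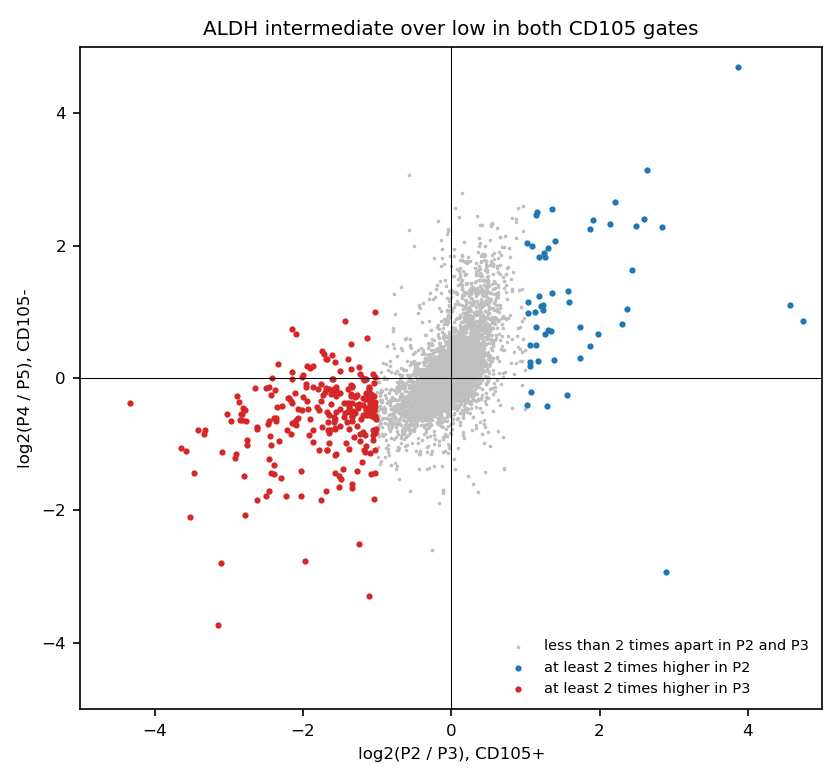
log2 ratio of ALDH intermediate to ALDH low in the CD105+ gate (P2 over P3, x axis) and in the CD105- gate (P4 over P5, y axis) for genes with at least 1 FPKM in each pair, with points beyond 5 on either axis and acinar genes not drawn. Of the genes higher in P3 (red), 232 of 261 lie below 0 on the y axis, and of those higher in P2 (blue), 49 of 54 lie above it.

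The threshold of 2 separated genes of nearly equal ratio. Towards P2, *Itgbl1* (18.6 and 9.27 FPKM) and *Tspan11* (8.60 and 4.26) were just inside, and *Papln* (8.09 and 4.05) just outside. Towards P3, *Casp1* (11.2 and 22.5 FPKM) and *Trps1* (2.62 and 5.30) were inside, and *Cd44* (15.7 and 31.3) and *Scn3b* (2.73 and 5.44) outside. Besides *Col3a1*, a further 2 genes of at least 1 FPKM in P2 or P3 were listed at 0 in the other of the pair. *Ebf2*, a transcription factor of adipose progenitors, was listed at 0 in P2 and at 10.6 FPKM in P3, and *Serbp1*, which binds ribosomes, was listed at 30.2 FPKM in P2 and 0 in P3. Genes listed at 0 in both P2 and P3 could not be compared. Among them were *Gsn*, with 5350 FPKM in P4 and 2092 in P5, and *C3*, listed at 0 in every population.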

How the data were processed

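RNA from sorted omental stromal cells was sequenced by the study (NEBNext Ultra libraries, single-end reads of 76 nt). The authors deposited FPKM per gene symbol and library. The submitters' processing notes name TopHat2 2.0.7, Cufflinks 2.1.1 and the mm10 build, and further normalization is not given in the sources used here. Raw counts were not used here. Rows that repeated a symbol (495 of 23847) were summed.

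Library depth was inferred from the steps in low FPKM values of single-transcript genes of at least 800 nt (GENCODE M21, effective length less 200 nt). Between 55.0% and 59.0% of the low values, of up to 10 reads, came out within 0.05 of a whole number, too few to treat them as counts, so no count test was run. Estimated reads gave exact binomial intervals (95%) on ratios, with none below 3 reads. They cover counting error only.

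With 1 library per population, a ratio of 2 with at least 1 FPKM stood in for a test. List medians used log2(FPKM + 0.1), which understates differences of low genes. Short RNAs (300 nt or less) were left out. Named genes were the 20 with the largest ratio in each direction at 5 FPKM or more and with a known length, the 10 largest of at least 1.5 at 50 FPKM or more, up to 5 members of each gene list, the markers *Cxcl13*, *Apoe* and *Ccl19*, and the gate and *Aldh* genes. Others are said to be chosen after their values were seen, or are list members, genes near the threshold or genes listed at 0. The members and lists were chosen with earlier results of these data known. Alternatives were the minimum, the fold, the pseudocount, the scaling, repeated symbols and values listed at 0. Promoter windows came from RefSeq (GRCm38.p6). The scripts ran under Python 3.11.15 (matplotlib 3.10.9, scipy 1.17.1, pandas 2.3.3 and numpy 2.4.6) and were tested on simulated data.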

Additional observations from a re-analysis of the deposited data

Results flagged for a closer look

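For 4 genes, the ratio of ALDH intermediate to low passed 2 in opposite directions in the CD105+ and CD105- gates. Of these, 2 (*Hba-a2* and *Ccl21b*, both with close copies) had fewer than 3 estimated reads in P2 and are given no ratio. *Prg2*, which encodes eosinophil major basic protein, had 2.32 FPKM in P2 and 0.311 in P3, a ratio of 7.45 (4.07 to 15.0), but 0.241 in P4 and 1.83 in P5. *1700029I15Rik* had 1.30 FPKM in P2 and 2.64 in P3, a ratio of P2 to P3 of 0.491 (0.246 to 0.943), but 0.996 in P5 with a ratio of P5 to P4 of 0.499. With 1 library per population, the difference between the gates was not tested, and each gene rested on few reads.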

How the results depend on the processing

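The number of genes at least 2 times higher in P2 and P3 (88 and 288) depended on the cutoffs. A minimum of 0.1 FPKM gave 385 and 737, no minimum 630 and 1176, a minimum of 5 FPKM 23 and 122, and a minimum of 10 FPKM 10 and 68. A fold of 1.5 gave 244 and 600, a fold of 3 gave 39 and 138, and a pseudocount of 1 gave 30 and 149. Requiring the whole counting interval beyond 2, an alternative chosen after seeing the data, gave 49 and 197. Under each of these settings more genes were higher in P3 than in P2. No paired analysis was possible because the 6 libraries have no replicates. Over 5 scalings of the libraries the numbers ran from 84 to 119 and from 253 to 311. The median of 5 gene lists with values near 0 changed its sign under some scaling or with all members included, namely complement, FRC surface genes, immediate early genes, further *Aldh* genes and adipocyte genes, and the other lists kept theirs. Their signs are not read as a direction. The single library per population is a limit of every result here, since the spread between mice and sorts is unknown.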
